A study of Mus musculus with 8 samples.

Results

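Integrins, laminins, collagens and the basement membrane were examined in 2 luminal fractions of the mouse mammary gland. RNA was sequenced from luminal progenitors (LP), sorted as c-Kit high, and from mature luminal cells, sorted as c-Kit low and called luminal differentiated in the labels, with 4 libraries of each. All cells came from untreated, wild type C57BL/6J females that were adult and virgin, and were sorted by flow cytometry after red cells, endothelial cells and leukocytes had been stained for removal. For the sort the labels name EpCAM, CD49f, c-Kit and CD14, while the study's text describes these fractions as gated on c-Kit. Tissue was digested with collagenase, hyaluronidase, trypsin and dispase, so the cells had left their matrix before RNA was taken. The labels do not say whether the 4 libraries of a fraction came from separate animals, and p-values then measure the spread between these libraries only. Members were all genes of the count table with an integrin, laminin or collagen chain symbol, together with Nid1, Nid2, Hspg2, Fn1, Dag1, Sdc1 and Sdc4. Of 87 such genes, 5 are not reported here and 3 had no count in any library, which left 79 members among 18975 genes with a count. These were 20 integrin chains, 10 laminin chains, 42 collagen chains and 7 linkers, glycoproteins or other receptors.

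Epithelial cells stand on a basement membrane, a thin sheet in which a laminin network and a type IV collagen network are tied together by nidogens and perlecan. Integrins are receptors made of an alpha and a beta chain that bind laminins, collagens or the short RGD motif of fibronectin and related proteins, and dystroglycan and syndecans are receptors beside them. In the mammary duct the myoepithelial layer lies next to the basement membrane, while most luminal cells face the lumen. Interstitial collagens are mainly products of fibroblasts.

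The libraries held 4410049 to 7791593 counts on genes. Values are given as CPM, counts scaled by TMM to a common library size, and levels of different genes were compared only as CPM per kb of exon. Markers of the fractions followed their labels, although the Kit protein was used in the sort and the labels name CD14 as well. The summed progenitor markers Kit, Elf5, Cd14, Aldh1a3 and Csn3 reached 16171 to 26255 CPM in LP and 343 to 1639 CPM in mature cells, where replicate 3 was highest. Esr1, Pgr, Prlr, Areg and Foxa1 together reached 304 to 992 CPM in LP and 4215 to 5947 CPM in mature cells. Cd14, with a mean of 14087 CPM, held most of the progenitor sum in LP, and Prlr, with 4546 CPM, most of the other sum in mature cells. Aldh1a3 was not called, at an edgeR adjusted p of 0.0512, and Areg and Esr1 were called although their groups overlapped. Of 9 myoepithelial markers 5 were tested in edgeR and 0 were called, 3 having an unadjusted p under 0.05, while DESeq2 called Acta2 and Oxtr and the edgeR likelihood ratio test called Acta2. Their sum was 18.2 to 49.6 CPM in LP and 15.9 to 79.4 CPM in mature cells, again highest in replicate 3. Within the lists of other types some defining markers were near 0, with Krt5 at no more than 2.17 CPM, Ptprc at no more than 0.277 CPM and Kdr at 0 in every library. Others were not, and Krt17 reached 33.2 CPM, Cd68 52.4 CPM, Vwf 37.5 CPM and Dcn 154 CPM. The summed fibroblast list was 7.35 to 37.5 CPM in LP and 20.9 to 182 CPM in mature cells, and the endothelial list 6.66 to 12.8 CPM in LP and 12.9 to 48.1 CPM in mature cells. Summed pericyte, immune and adipocyte lists were 9.49 to 31.9, 11.3 to 56.6 and 0.719 to 6.38 CPM over the 8 libraries, with 0 markers called in edgeR or DESeq2. In these 3 lists 0 markers had an unadjusted p under 0.05 in edgeR's quasi-likelihood test, and 1 immune marker did in DESeq2 and in the likelihood ratio test. Krt8, Krt18 and Krt19, the luminal keratins, were abundant in all libraries and higher in mature cells.

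Promoter sequences are shown for 4 members, namely the member with the largest difference in each direction and the neighbouring pair Col4a6 and Col4a5, whose chains belong to the type IV network and whose starts lie back to back with 1342 bases between them. They are the 250 bases before the start in RefSeq, build GRCm38.p6, read 5′ to 3′ on the gene's strand. Capitals mark GC boxes, searched as GGGCGG or CCGCCC.

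Itga8: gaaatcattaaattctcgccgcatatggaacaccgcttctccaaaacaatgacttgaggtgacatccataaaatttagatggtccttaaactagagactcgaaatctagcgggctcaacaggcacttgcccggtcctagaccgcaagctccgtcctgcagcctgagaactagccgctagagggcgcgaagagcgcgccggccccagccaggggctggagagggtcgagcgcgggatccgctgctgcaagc

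Col8a1: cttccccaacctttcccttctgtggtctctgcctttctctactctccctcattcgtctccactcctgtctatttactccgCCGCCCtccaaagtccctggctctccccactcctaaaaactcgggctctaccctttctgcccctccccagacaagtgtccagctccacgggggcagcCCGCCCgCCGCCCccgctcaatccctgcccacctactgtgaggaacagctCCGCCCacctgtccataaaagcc

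Col4a6: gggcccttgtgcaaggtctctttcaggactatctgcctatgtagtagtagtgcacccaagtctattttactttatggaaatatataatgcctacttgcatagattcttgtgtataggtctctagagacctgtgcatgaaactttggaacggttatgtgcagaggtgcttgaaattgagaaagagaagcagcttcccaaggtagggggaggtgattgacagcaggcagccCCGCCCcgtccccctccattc

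Col4a5: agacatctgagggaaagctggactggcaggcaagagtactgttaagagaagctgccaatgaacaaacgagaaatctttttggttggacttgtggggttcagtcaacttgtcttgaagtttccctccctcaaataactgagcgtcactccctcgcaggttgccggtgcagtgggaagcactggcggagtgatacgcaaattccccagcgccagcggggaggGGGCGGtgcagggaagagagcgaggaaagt

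These windows are chr2:12301945-12302194 on the minus strand for Itga8, chr16:57754738-57754987 on the minus strand for Col8a1, chrX:141474077-141474326 on the minus strand for Col4a6 and chrX:141475169-141475418 on the plus strand for Col4a5. The Col8a1 window held 4 GC boxes, those of Col4a6 and Col4a5 1 each, and the Itga8 window none. A GC box was present in 32.94% of 27025 promoters and in 32 of the 58 member promoters found in the table. Neither the TATA box TATAAA nor the GATA element AGATAA, searched on both strands, was present in any of the 4 windows, and all promoters held them at 12.97% and 10.25%. A match or its absence describes these letters only.

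Counts were high enough for the test in 41 of the 79 members. In bulk RNA, fewer cells of a type and less RNA per cell cannot be told apart. At an adjusted p under 0.05 in edgeR's quasi-likelihood test, 4 members were higher in LP, as were 10.9% of all 12816 tested genes, and 9 were higher in mature cells, as were 13.8% of all tested genes. As shares of the tested members these are 9.76% and 22.0%. The median log2 fold change of the tested members, LP minus mature, was -0.16 against 0 over all tested genes. Every LP library lay above every mature library for 4 members, and every mature library above every LP library for 10, against 14.0% and 15.5% of all tested genes. The other 38 members had 1 to 174 counts over all 8 libraries with a median of 25, and none exceeded a mean of 4.07 CPM in either fraction.

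**Figure D1:**
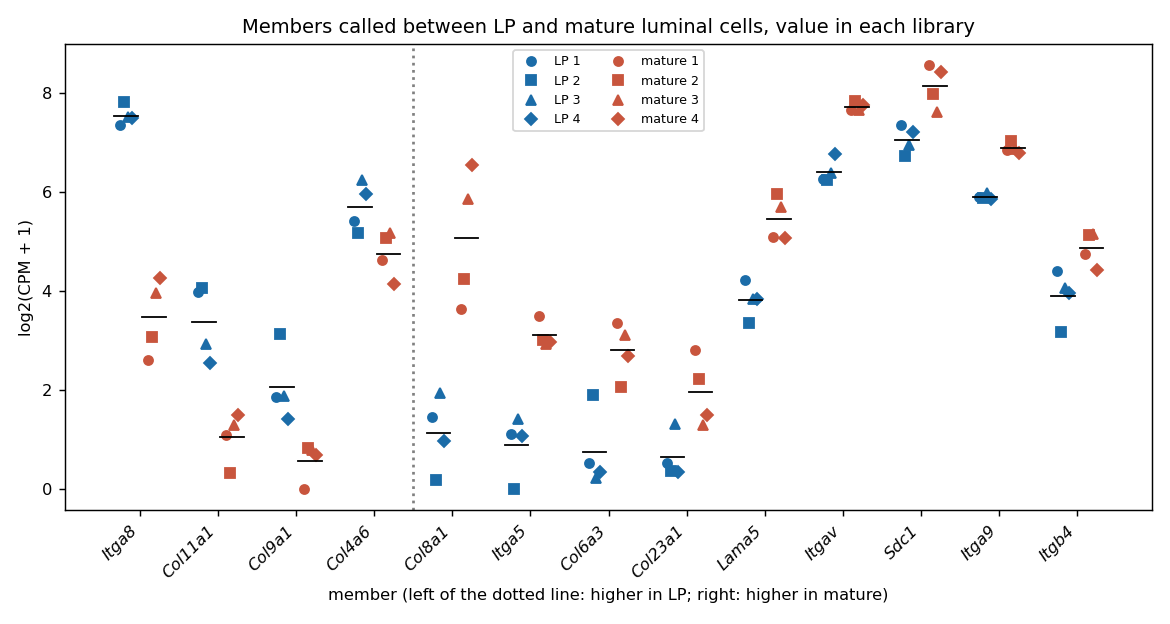
Expression of the 13 called members in each library as log2(CPM + 1), with LP libraries in blue, mature libraries in red, a symbol for each replicate number and the group mean as a black line. Itga8 separates the fractions by the widest margin among the members higher in LP, and Col8a1 among those higher in mature cells.

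**Figure D2:**
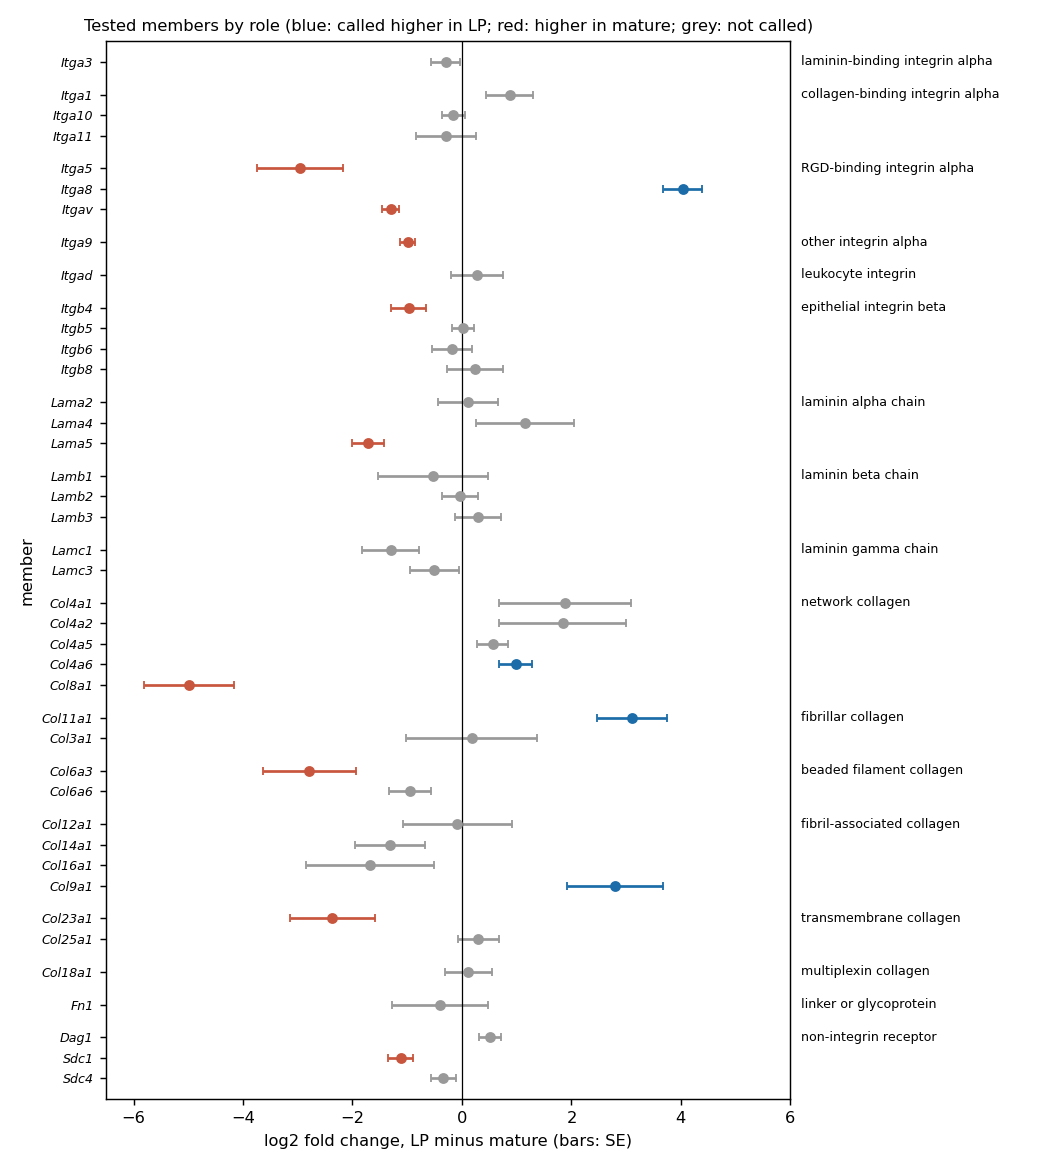
Log2 fold change, LP minus mature, of the 41 tested members with its standard error as bars, grouped by role. The 3 RGD-binding alpha chains were all called, with Itga8 on the LP side and Itgav and Itga5 on the mature side. Of all tested genes, 10.9% were called on the LP side and 13.8% on the mature side.

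The integrin alpha chains that bind RGD ligands differed between the fractions in opposite directions. Itga8 was 16.4-fold higher in LP, while Itgav and Itga5 were higher in mature cells, by 2.47-fold and 7.75-fold. All 3 measured chains of this group were called.

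Itga8 pairs with the beta chain of Itgb1 and binds nephronectin, fibronectin and other RGD ligands. It lies on chromosome 2 at 12106632 to 12301985 of GRCm38. Its level was 161, 223, 180 and 180 CPM in LP replicates 1 to 4 and 5.06, 7.35, 14.4 and 18.1 CPM in mature replicates 1 to 4. The lowest LP library was far above the highest mature library. The log2 fold change was 4.03 ± 0.36 (SE, n = 4 and 4), with an edgeR adjusted p of 0.000166. The call was also made under each of 15 other settings of the analysis. In the annotation, 372 of the 5812 exon bases of Itga8 are also exon of E030013I19Rik on the opposite strand, whose level was 37.9 to 88.3 CPM in LP and 0 to 4.62 CPM in mature cells. The sources used here do not say that strand was used in counting, so reads in the shared bases cannot be told apart.

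Itgav encodes the alpha chain of several RGD receptors, some of which release active TGF-beta from its latent form. Its level was 75.9, 74.0, 81.7 and 107.8 CPM in LP and 199.3, 226, 199.2 and 215 CPM in mature cells, so that the groups did not overlap. Its log2 fold change was -1.30 ± 0.16 (SE), with an edgeR adjusted p of 0.000569. Itga5, the alpha chain of the classical fibronectin receptor, was lower per length than Itgav in every library, with 1.16, 0, 1.66 and 1.11 CPM in LP and 10.3, 7.09, 6.64 and 6.78 CPM in mature cells. It differed by a log2 fold change of -2.95 ± 0.78 (SE), with an edgeR adjusted p of 0.0192, which became 0.0506 without mature replicate 1.

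Per length, Itga8 was the leading RGD-binding alpha chain of LP and Itgav that of mature cells. In LP, Itga8 stood at 27.7 to 38.3 CPM per kb and Itgav at 10.50 to 15.3 CPM per kb, so that the ratio of Itga8 to Itgav was 2.02 to 3.65. In mature cells, Itga8 stood at 0.871 to 3.11 CPM per kb and Itgav at 28.2 to 32.0 CPM per kb, a ratio of 0.0308 to 0.102. The order of these chains was thus opposite in the fractions in all 8 libraries. The mature libraries with the highest progenitor marker sums, replicates 3 and 4, also had the highest Itga8, and the part of those cells in its mature level was not tested.

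**Figure D3:**
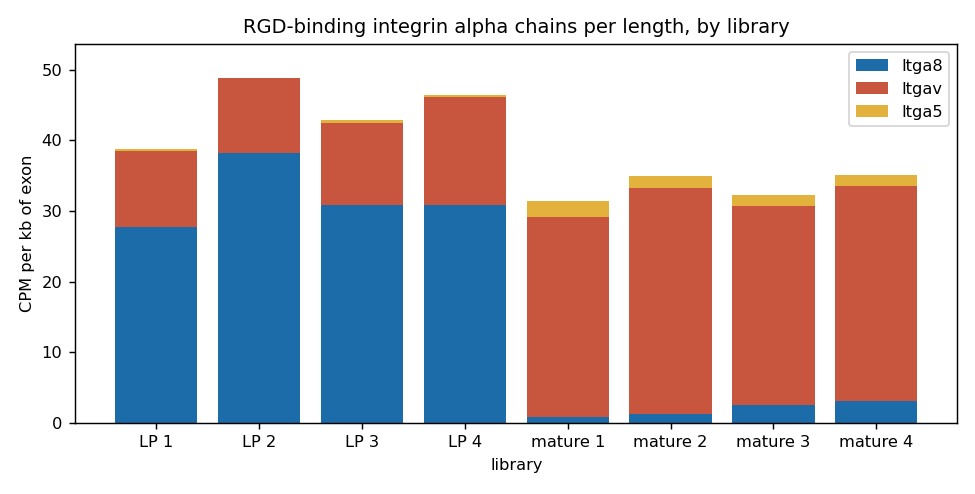
Level of Itga8, Itgav and Itga5 in each library in CPM per kb of exon, stacked from 0. Itga8 makes up the larger part of each LP bar and Itgav the larger part of each mature bar.

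Among the other alpha chains, Itga9 was higher in mature cells and the laminin- and collagen-binding chains were not called. Itga9 binds tenascin and other ligands as a partner of Itgb1. It was measured at 58.8, 57.5, 61.8 and 56.9 CPM in LP and at 113, 129, 115 and 108 CPM in mature cells. The libraries of each fraction lay close together and the groups did not overlap. Itga9 thus had a log2 fold change of -0.99 ± 0.14 (SE), with an edgeR adjusted p of 0.000867, and kept the call in all 15 other settings. Itga4, the other chain of this group, had 3 counts in all.

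Itga3, whose product binds laminin, had 11.1 to 18.3 CPM in LP and 15.9 to 21.4 CPM in mature cells, with a log2 fold change of -0.30 ± 0.27 (SE). Itga7, also laminin-binding, was not tested. Of the collagen-binding chains, Itga10 led per length, with 34.4 to 55.0 CPM in LP and 39.7 to 58.0 CPM in mature cells. The annotation gives 1739 of its exon bases to the gene model Gm42957 on the same strand as well. Itga1 was 6.39 to 11.8 CPM in LP and 3.03 to 6.18 CPM in mature cells, and although these ranges did not overlap its adjusted p in edgeR was 0.167. Itgad, the leukocyte integrin with the highest level, stood at 4.60 to 7.63 CPM in LP and 2.45 to 7.84 CPM in mature cells, and each of the other 5 with a count was too low to be tested. The exons of Itgad overlap those of 4 other gene models.

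Of the 4 epithelial beta chains, Itgb4 was called, higher in mature cells, and Itgb5, Itgb6 and Itgb8 were not. Of all tested genes, 13.8% were called higher in mature cells and 10.9% higher in LP. Itgb4 pairs with Itga6 in the hemidesmosome, the junction that ties keratin filaments to laminin. It was measured at 20.04, 8.05, 15.8 and 14.4 CPM in LP and 25.9, 33.9, 34.2 and 20.5 CPM in mature cells. The lowest mature library lay just above the highest LP library. For Itgb4 the log2 fold change was -0.97 ± 0.32 (SE), with an edgeR adjusted p of 0.0464. This call was close to the threshold. Leaving out LP replicate 2, 3 or 4 or mature replicate 1, 2 or 3 took the adjusted p to between 0.0728 and 0.112. The call of Itgb4 was also lost with a replicate block, in which LP and mature libraries of the same number were paired. The 5 tested myoepithelial markers did not share a direction, with negative log2 fold changes for Acta2, Krt14 and Cnn1, the lowest -2.47, and positive ones for Krt17 and Oxtr, the highest 3.12. The part of such cells in Itgb4 was not tested. Exons of Itgb4 share 537 bases with B230344G16Rik on the opposite strand.

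Itgb5, a partner of Itgav, was nearly level, with a log2 fold change of 0.02 ± 0.20 (SE). Itgb6, another partner of Itgav found in epithelia, ranged from 20.4 to 58.5 CPM in LP and from 28.3 to 60.9 CPM in mature cells. The result for Itgb8 turned on 1 library. It stood at 59.0, 46.1, 42.7 and 43.4 CPM in LP and at 11.8, 28.6, 95.6 and 25.5 CPM in mature cells, where replicate 3 lay above every LP library and the other 3 below. Its adjusted p in edgeR was 0.769 with all libraries. Without mature replicate 3 the log2 fold change of Itgb8 was 1.16, with an edgeR adjusted p of 0.0216.

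Laminins are trimers of an alpha, a beta and a gamma chain. Of 8 tested laminin genes Lama5 was called, higher in mature cells, and 0 were higher in LP by edgeR or DESeq2, also at an unadjusted p under 0.05. In edgeR, 13.8% of all tested genes were called higher in mature cells and 10.9% higher in LP.

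Lama5 encodes the alpha chain of laminins found under most adult epithelia. Its level was 17.7, 9.20, 13.3 and 13.3 CPM in LP and 32.9, 60.7, 51.0 and 32.7 CPM in mature cells, with no overlap. Lama5 had a log2 fold change of -1.72 ± 0.29 (SE), with an edgeR adjusted p of 0.00241. The call of Lama5 was kept in all 15 other settings.

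Lama3 and Lamb3, chains of epithelial laminin bound by the hemidesmosome, did not share the pattern of Lama5. Lamb3 was 25.2 to 42.0 CPM in LP and 10.97, 17.3, 51.7 and 22.5 CPM in mature cells, with a log2 fold change of 0.30 ± 0.42 (SE). Lama3 had 1.16, 2.01, 6.81 and 0.277 CPM in LP and 0.141, 1.05, 13.7 and 1.36 CPM in mature cells and was too low to be tested. Per length, Lamb3 stood at 2.14 to 10.1 CPM per kb and Lama3 at 0.0131 to 1.28 CPM per kb over all 8 libraries, with Lamb3 above Lama3 in each. Both Lamb3 and Lama3 were highest in mature replicate 3, and next highest in LP replicate 3.

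Lamc1, the gamma chain of most other laminins, was 26.6, 3.59, 14.6 and 11.7 CPM in LP and 18.8, 29.9, 56.2 and 34.1 CPM in mature cells. Its groups overlapped, and with a log2 fold change of -1.30 ± 0.52 (SE) it missed the threshold at an edgeR adjusted p of 0.0930. Without LP replicate 1 the adjusted p of Lamc1 was 0.0393. Lamb1 and Lamb2, the beta chains that can join Lama5 and Lamc1, were not called, with log2 fold changes of -0.53 and -0.04.

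**Figure D4:**
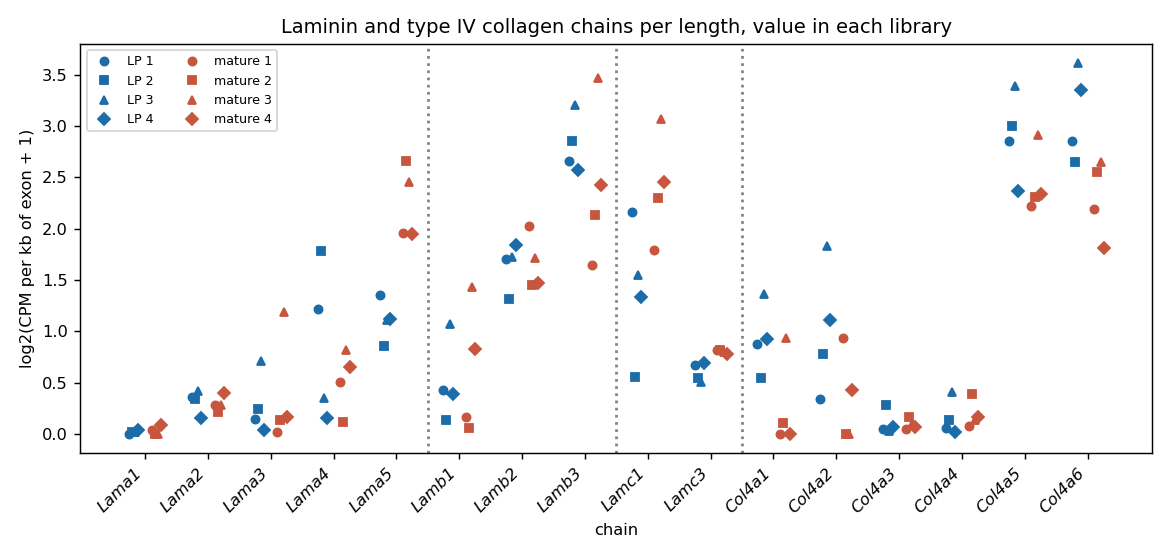
Laminin and type IV collagen chains in each library as log2(CPM per kb of exon + 1), with LP in blue and mature cells in red. Lama5 is higher in every mature library than in any LP library, and Col4a5 and Col4a6 stand above Col4a1 to Col4a4.

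Collagens were low as a family, and those called did not point in 1 direction. Of 42 collagen genes 16 were tested, 3 of which were called on the LP side and 3 on the mature side. Each is 18.75% of those tested, against 10.9% and 13.8% of all tested genes. By mean CPM per kb, no collagen reached the level of Itgav in either fraction. The common interstitial collagens were near 0 in these sorted cells, with Col1a1 at no more than 1.74 CPM, Col1a2 at no more than 4.04 CPM and Col3a1 at no more than 5.48 CPM in any library.

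Type IV collagen was represented by Col4a5 and Col4a6. These chains join in a network found in the basement membranes of some epithelia and of smooth muscle, whereas Col4a1 and Col4a2 form the network common to nearly all basement membranes. Col4a6 was measured at 41.4, 34.9, 74.9 and 61.0 CPM in LP and 23.6, 32.3, 34.9 and 16.7 CPM in mature cells. The groups met at their edges, where LP replicate 2 and mature replicate 3 were equal to within 0.01 CPM. For Col4a6 the log2 fold change was 0.98 ± 0.31 (SE), with an edgeR adjusted p of 0.0378. Leaving out LP replicate 3 or 4 or mature replicate 1 or 4 took that p to between 0.0752 and 0.107.

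Its neighbour Col4a5 had 40.7, 45.9, 62.1 and 27.2 CPM in LP and 23.9, 25.7, 42.7 and 26.5 CPM in mature cells. Its log2 fold change was 0.56 ± 0.29 (SE), and at an edgeR adjusted p of 0.180 it was not called. The ratio of Col4a6 to Col4a5 per length was 0.749 to 2.21 in LP and 0.620 to 1.23 in mature cells. Col4a1 and Col4a2 were lower, at 0.270 to 2.55 CPM per kb in LP and 0 to 0.917 CPM per kb in mature cells, and Col4a1 had no count in mature replicates 1 and 4. With all libraries Col4a1 was not called, at an edgeR adjusted p of 0.288. Without mature replicate 3, where Col4a1 stood at 6.06 CPM, its edgeR adjusted p was 0.00742. Col4a2 was called neither there nor with all libraries, where its edgeR adjusted p was 0.278. It had 5.91 CPM in mature replicate 1 and no count in mature replicates 2 and 3.

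Col8a1, a short network-forming chain known from vessel walls and other basement membranes, had the largest fold change of the tested members. Its values were 1.74, 0.144, 2.82 and 0.971 CPM in LP and 11.4, 17.9, 57.2 and 92.2 CPM in mature cells. No library of LP came near the mature libraries, which themselves spread widely. For Col8a1 the log2 fold change was -4.99 ± 0.83 (SE), with an edgeR adjusted p of 0.00213, and the call held in the 14 other settings in which it was tested. Without mature replicate 4 its log2 fold change was -4.33. Vwf, a marker of endothelium, was also higher in mature cells, with 19.4, 9.19, 37.5 and 36.6 CPM against 1.45 to 2.88 CPM in LP and an edgeR adjusted p of 0.00112, and like Col8a1 it was highest in replicates 3 and 4. The other 5 endothelial markers were at 0 (Kdr), or at no more than 8.19 CPM and not called or not tested, and the part of such cells in Col8a1 was not tested.

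Col11a1, a chain of the minor fibrillar collagen of cartilage, was the fibrillar collagen with the highest level. It was measured at 14.7, 15.7, 6.64 and 4.86 CPM in LP and 1.12, 0.263, 1.44 and 1.81 CPM in mature cells. All LP libraries were higher than all mature libraries. Col11a1 had a log2 fold change of 3.11 ± 0.63 (SE), with an edgeR adjusted p of 0.00567. Col9a1, a fibril-associated chain also best known from cartilage, went the same way at lower levels, with 2.61, 7.76, 2.66 and 1.66 CPM in LP and 0 to 0.788 CPM in mature cells. Its log2 fold change was 2.80 ± 0.88 (SE), with an edgeR adjusted p of 0.0396. Leaving out any 1 of the 8 libraries took the adjusted p of Col9a1 to between 0.0540 and 0.152, and without LP replicate 2 its log2 fold change was 2.13. With the replicate block the edgeR adjusted p of Col9a1 was 0.0692. Col2a1, the main cartilage collagen, was among the genes with no count.

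Col6a3, a chain of the beaded filaments of connective tissue, was higher in mature cells. It had 0.436, 2.73, 0.166 and 0.277 CPM in LP and 9.28, 3.15, 7.65 and 5.42 CPM in mature cells, with a narrow gap between the groups. For Col6a3 the log2 fold change was -2.79 ± 0.85 (SE), with an edgeR adjusted p of 0.0345. Without LP replicate 1, 3 or 4 or mature replicate 1, 3 or 4, the adjusted p of Col6a3 lay between 0.0580 and 0.0961. Without LP replicate 2, the highest LP library, the log2 fold change of Col6a3 was -4.34, with an edgeR adjusted p of 0.00693. Its partner chains Col6a1 and Col6a2 did not exceed 3.61 CPM in any library. Col6a6, the beaded filament chain with the highest level per length, was 3.74 to 9.30 CPM in LP and 9.98 to 15.7 CPM in mature cells and missed the threshold at an edgeR adjusted p of 0.0997.

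Col23a1, a transmembrane collagen, had 0.277 to 1.49 CPM in LP and 6.05, 3.68, 1.44 and 1.81 CPM in mature cells. The groups overlapped, and the edgeR adjusted p was 0.0471 with a log2 fold change of -2.37 ± 0.77 (SE). That p rose to between 0.0610 and 0.154 without LP replicate 1, 2 or 4 or mature replicate 1, 2 or 4, and to 0.0941 with the replicate block. Without LP replicate 3 the log2 fold change of Col23a1 was -3.21, with an edgeR adjusted p of 0.0253. Of the fibroblast markers, Dcn was 1.53 to 24.7 CPM in LP and 132, 154, 14.1 and 20.6 CPM in mature cells, with an edgeR adjusted p of 0.0675. Pdgfra did not exceed 16.3 CPM and Thy1 did not exceed 0.433 CPM. Without mature replicates 1 and 2, where Dcn was highest, 2 of 52 tested members were higher in LP and 5 in mature cells. That setting was added after the data were seen. Over all genes, 2179 of 13620 tested were called in it, against 3161 of 12816 with all libraries. Col8a1 kept its call in that setting, at an adjusted p of 0.00178 in edgeR. Col6a3 had nearly the same log2 fold change as with all libraries, -2.81, but an edgeR adjusted p of 0.102, and Col23a1 moved to -1.36 with an edgeR adjusted p of 0.411. That setting also has fewer mature libraries, so neither a kept nor a lost call there gives an answer on fibroblasts. The part of fibroblasts in these collagens was not tested.

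Other collagens were led in their groups by Col12a1, Col25a1 and Col18a1, and none of these was called. Col12a1 was 3.16 to 20.8 CPM in LP and 0.562, 9.19, 34.1 and 1.51 CPM in mature cells. Col25a1 and Col18a1 did not exceed 9.85 CPM. Col17a1, the transmembrane collagen of the hemidesmosome, did not exceed 1.58 CPM, and Col7a1, which forms the anchoring fibrils beneath it, had 1 count in all. Col28a1 led the remaining collagens at 5.91 CPM in mature replicate 1 and was not tested.

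Fibronectin and the linkers of the basement membrane were scarce. Fn1, fibronectin, was the highest of them per length, at 0.436 to 7.30 CPM in LP and 1.58 to 8.81 CPM in mature cells, with a log2 fold change of -0.40 ± 0.88 (SE). Hspg2, perlecan, did not exceed 6.14 CPM. The nidogen Nid2 did not exceed 0.555 CPM and Nid1 had no count in the 4 LP libraries, which allows a level of up to 0.111 CPM and covers counting error only.

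Sdc4 and Sdc1 had the highest levels per length of all members in both fractions, with means of 1149 and 42.3 CPM per kb in LP and 1453 and 91.8 CPM per kb in mature cells. Sdc4, a heparan sulfate receptor of focal adhesions, was 2571, 2917, 2263 and 3548 CPM in LP and 4017, 4365, 2902 and 3003 CPM in mature cells. These ranges overlapped, with a log2 fold change of -0.34 ± 0.22 (SE) and an edgeR adjusted p of 0.296. Sdc1, the main syndecan of epithelia, was 162, 105, 122 and 146 CPM in LP and 374, 251, 194 and 341 CPM in mature cells, with no overlap. Sdc1 had a log2 fold change of -1.12 ± 0.23 (SE), with an edgeR adjusted p of 0.00611. Dag1, dystroglycan, which binds laminin, was 179, 138, 215 and 166 CPM in LP and 115, 88.0, 145 and 140 CPM in mature cells. LP replicate 2 lay below the 2 highest mature libraries, and at a log2 fold change of 0.51 ± 0.20 (SE) the edgeR adjusted p of Dag1 was 0.0871. Dag1 was higher in LP in each same-numbered pair, and with the replicate block its edgeR adjusted p was 0.0392. No source used here says what the number marks. Together with Lamc1 and Col6a6, Dag1 made up the 3 members that passed an unadjusted p of 0.05 and missed the adjusted threshold.

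Several matrix members were highest in replicate 3, in mature cells at a share near that of all tested genes. LP replicate 3 was the highest LP library for 18 of the 41 tested members, which is 43.9%, against 28.0% of all tested genes. In mature cells, replicate 3 was the highest for 13 of 41, 31.7% against 27.9%. Lama3, Lamb3, Lamb1, Col12a1 and Itgb8, chosen here after their values were seen, were highest of all libraries in mature replicate 3. There the myoepithelial list also reached its highest sum of 79.4 CPM, with Krt14 at 18.6 CPM and Acta2 at 16.6 CPM, but Krt5 at 2.17 CPM. Without replicate 3 of both fractions, 4 of 40 tested members were higher in LP and 7 in mature cells. Over all genes, 2963 of 12848 tested were called there, against 3161 of 12816 with all libraries. Of the 4 and 7 members, respectively 2 and 7 were among those called with all libraries, and Col4a1 and Itgb8 were the 2 others higher in LP. The part of myoepithelial cells in these values was not tested.

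**Figure D5:**
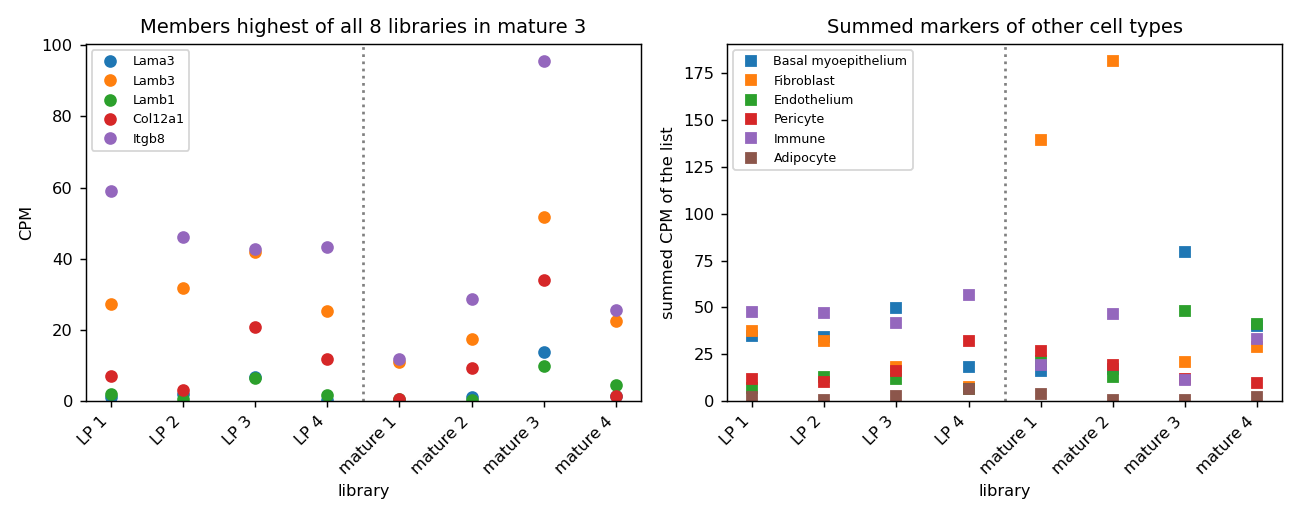
Left, CPM of 5 members in each library; right, summed CPM of the marker lists of other cell types in each library. Mature replicate 3 has the highest value of all 5 members and of the myoepithelial list, and mature replicates 1 and 2 have the highest fibroblast sums.

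Inside the cell, integrins are linked to actin or keratin filaments by an adhesion complex. Of 22 genes of this complex 19 were tested. In LP 4 of them were higher and in mature cells 4, each 21.1% of those tested against 10.9% and 13.8% of all tested genes, with a median log2 fold change of -0.44. Tln1 and Tln2, the talins that join integrin tails to actin, were higher in LP, with log2 fold changes of 1.14 ± 0.21 and 2.04 ± 0.52 (SE). So were Ilk, a scaffold of the complex, at 0.87 ± 0.28 and Tns3, a tensin, at 1.90 ± 0.33. Higher in mature cells were Pxn, paxillin, at -1.14 ± 0.31 and Bcar1, a docking protein of adhesions, at -1.65 ± 0.35. Plec and Dst, plakins that tie keratin filaments to the hemidesmosome, were at -0.66 ± 0.17 and -0.78 ± 0.16. Both plakins thus had the direction of Itgb4.

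Collagen chains are hydroxylated, folded and trimmed by their own enzymes. Of 17 such genes 12 were tested. In LP 1 of them was higher and in mature cells 5, or 8.33% and 41.7% against 10.9% and 13.8% of all tested genes, with a median log2 fold change of -0.73. P4ha1, a catalytic subunit of prolyl hydroxylase, was 14.1 to 33.0 CPM in LP and 88.7 to 124 CPM in mature cells, a log2 fold change of -2.24 ± 0.26 (SE). Plod1, a lysyl hydroxylase, was 3.15 to 10.9 CPM in LP and 28.8 to 62.2 CPM in mature cells, a log2 fold change of -2.97 ± 0.43 (SE). These enzymes did not overlap between the fractions. P4ha2, the partner isoform of P4ha1, was also called, but its mature values were 325, 330, 85.9 and 43.7 CPM, with the highest in the libraries where Dcn was highest. Bmp1, which trims procollagens, and Pcolce, which enhances that step, were likewise higher in mature cells, at -2.82 ± 0.81 and -2.69 ± 0.70 (SE). Colgalt1, which adds sugar to collagen, was higher in LP at 0.88 ± 0.23 (SE).

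Among 13 other matrix receptors and dystroglycan partners, 11 were tested, with a median log2 fold change of 0.25. In LP 2 were higher and in mature cells 1, or 18.2% and 9.09% against 10.9% and 13.8% of all tested genes. Bcam, a receptor for the laminin chain of Lama5, was 38.5 to 124 CPM in LP and 5.06 to 32.9 CPM in mature cells, the direction opposite to that of Lama5. Its log2 fold change was 2.20 ± 0.54 (SE), with an edgeR adjusted p of 0.0135. Cd44, the hyaluronan receptor, was higher in LP at 1.10 ± 0.25 (SE). Utrn, which links dystroglycan to actin, was 39.4 to 72.5 CPM in LP and 102 to 238 CPM in mature cells, at -1.50 ± 0.31 (SE), whereas Dmd, dystrophin, was not called, at 0.25 ± 0.27 (SE).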

How the data were processed

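Bulk RNA-seq of 4 LP and 4 mature luminal libraries was analysed. Amplified cDNA from a low-input kit was sequenced, and per the submitters' processing notes reads were trimmed with cutadapt 4.2 and aligned to mm10 with Bowtie2 2.3.5.1. The authors deposited raw counts per gene as whole numbers, without normalization, for 24594 Entrez Gene IDs. The counting program, its annotation and its use of strand are not given in the sources used here. The study's methods state fewer biological replicates than the 4 libraries per fraction, and all 8 libraries were used.

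Of the IDs, 24570 matched a symbol in RefSeq for GRCm38.p6. Exon lengths and overlaps came from GENCODE vM21. Counts were fitted in edgeR 4.0.16 (R 4.3.3) by the quasi-likelihood F-test with TMM factors, filterByExpr grouped by fraction and adjustment by Benjamini-Hochberg across the 12816 genes tested. Standard errors were the absolute log2 fold change divided by the square root of F. The fit was tested on simulated data. Library totals were 4410049 to 7791593 counts, and the biological coefficient of variation was 0.393. Replicates differed by more than sampling noise, so no library was counted as a copy.

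Members and lists were chosen with earlier results of these data known. Some genes of these families are not reported here. Named were all members with an adjusted p under 0.05, those with a mean of at least 50 CPM in either fraction, the member of each role group with the highest level per length, and those passing only an unadjusted p of 0.05. Other genes are named where a result turns on them. Other settings were median-of-ratios and upper-quartile factors, DESeq2 1.42.0, the edgeR likelihood ratio test, no filter on low counts, a minimum of 10 counts per gene in all libraries, a replicate block and each library left out. Leaving out both replicate 3 libraries, or mature replicates 1 and 2, was added after the data were seen.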

Additional observations from a re-analysis of the deposited data

Results flagged for a closer look

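In 7 of 55 groups of 4 libraries of the named members, the highest or lowest library lay farther from its neighbour, relative to the group's range, than Dixon's limit for 4 values. Among normal values, chance alone flags about 1 group in 20, or 2.75 here. That rate need not hold for groups with few counts, so the 7 were not read as an excess. A group with 1 count, such as Col7a1 in LP, always exceeds the limit. Col7a1 in LP replicate 3 stood at 0.166 CPM, its 1 count, while the other LP libraries had none. Col28a1 was at 5.906 CPM in mature replicate 1, and Col23a1 at 1.494 CPM in LP replicate 3, the highest of their groups. LP replicate 2 was the highest LP library for Col6a3, at 2.731 CPM, and for Col9a1, at 7.763 CPM, and the lowest for Itgb5, at 29.47 CPM. Itga5 was highest in mature replicate 1, at 10.27 CPM.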

How the results depend on the processing

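Itga8, Itgav, Itga9, Lama5 and Sdc1 kept their calls in all 15 other settings, and Col11a1 and Col8a1 in the 14 in which they were tested. The main counts were 4 members on the LP side and 9 on the mature side, with 3161 of 12816 tested genes called. They became 2 and 5 where a gene needed 10 counts in each library, with 24 members tested and 2994 of 10257 genes called. Without mature replicates 1 and 2 they were also 2 and 5, with 52 members tested and 2179 of 13620 genes called. Leaving out 1 library at a time gave 2 to 5 members on the LP side and 5 to 8 on the mature side. Over all genes these settings called 2338 to 3414, with 13031 to 13163 tested. With a replicate block there were 4 and 7, of which 3 and 7 were called without it, and 3027 of 12816 genes were called. Dag1, higher in LP in all 4 same-numbered pairs, was gained at an edgeR adjusted p of 0.0392, and Col9a1, Itgb4 and Col23a1 were lost. The table headers join 1 LP and 1 mature library by a shared number, in the same pairs as the replicate numbers, but no source used here says what it marks. Libraries with the same number correlated at 0.066 to 0.161 in their deviations, and 7 of 8 correlated best with their own number, which is only a hint that the numbers pair the samples. DESeq2 and the likelihood ratio test each called 4 and 10, adding Lamc1. Over all genes they called 3791 of 12802 and 3736 of 12816. Changes of sign were looked for only in members chosen for naming by level or p and not called in the main comparison. The log2 fold change turned sign for Col12a1 (0.879 with the replicate block, 1.02 without both replicate 3 libraries, -0.62 to 1.61 with 1 library left out), Col18a1 (-0.023 to 0.345), Fn1 (-1.28 to 0.389) and Itgb5 (-0.07 to 0.137). Without mature replicates 1 and 2 it turned sign for Itgb5 (-0.153), Itga10 (0.052) and Lamb3 (-0.221). The cause was not tested. The other 38 members had too few counts to be tested.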

Other observations

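Proteases that cut matrix or matrix receptors, and their inhibitors, were not described above. Of 22 such genes 13 were tested, with a median log2 fold change of 0.28. In LP 2 were higher and in mature cells 2, each 15.4% of those tested against 10.9% and 13.8% of all tested genes. Adam10, a sheddase of cell surface proteins, was 218 to 376 CPM in LP and 682 to 844 CPM in mature cells, a log2 fold change of -1.48 ± 0.20 (SE, n = 4 and 4) with an edgeR adjusted p of 0.000859. The inhibitors did not share a direction. Timp1 and Timp2 were higher in LP, at 1.74 ± 0.50 and 0.83 ± 0.23 (SE), although the groups of Timp2 overlapped. Timp3, which is held in the matrix, was higher in mature cells, at -1.14 ± 0.38 (SE), with an edgeR adjusted p of 0.0482. The groups of Timp3 overlapped as well. Its value in mature replicate 1, 122.8 CPM, lay below the lowest LP library at 123.6 CPM, and its highest was 563 CPM in mature replicate 3. Mmp14, a membrane-bound collagenase, was 78.5 to 149 CPM in LP and 93.2 to 122 CPM in mature cells, at -0.10 ± 0.21 (SE). Mmp3 had 19.3, 21.1, 0 and 0.139 CPM in LP and 25.9 to 60.0 CPM in mature cells, and was not called.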
